A study of Mus musculus with 40 samples.

Results

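The genes described here make up the folding and quality control machinery of the endoplasmic reticulum (ER) in mouse liver. They are 36 genes, taken by symbol from a list of ER chaperones, folding enzymes, ER-associated degradation factors, translocation subunits and stress sensors. The list was drawn up with earlier results of these data known. All 36 were found among the 21500 protein-coding genes of the count table, and all 36 were among the 13993 genes with enough counts to be tested. Hepatocytes make most plasma proteins, and each of these passes through the ER. There the chaperone BiP (Hspa5) binds unfolded chains, lectin chaperones hold glycoproteins, protein disulfide isomerases form and reshuffle disulfide bonds, and chains that do not fold are pulled back into the cytosol and destroyed by ER-associated degradation. When unfolded chains build up, the sensors IRE1-alpha (Ern1), PERK (Eif2ak3) and ATF6 (Atf6) set off the unfolded protein response, in which cleaved ATF6 and spliced XBP1 bind promoters of the chaperone genes.

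The RNA came from the livers of 20 male C57BL/6J mice aged 20 weeks, and the study concerned BLT1 inhibition in mice with liver fibrosis. The labels name no modified allele. All mice ate CDAA-HFD, a diet of defined amino acids without added choline, with 60 kcal% fat and 0.1% methionine that produces fatty, inflamed and scarred livers. The diet began at 8 weeks of age. The CDAA-HFD group (mice 31 to 40) stayed on it alone, and the BLT1i group (mice 71 to 80) received it with BLT1i at 90 mg/kg for 8 weeks after the first 4 weeks. BLT1 is the usual name of leukotriene B4 receptor 1, and the sources used here do not give the chemical identity of BLT1i. Both groups thus ate the fibrogenic diet, and livers from healthy mice were not analysed here. Each mouse was read on 2 lanes, which form 1 column of counts, so each mouse counted as 1 replicate (n = 10 per group). Total counts per mouse were 20994073 to 27456678 in the CDAA-HFD group and 18467060 to 26078285 in the BLT1i group.

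In bulk liver RNA, fewer cells of a type and less RNA per cell cannot be told apart. Hepatocyte markers summed to 51290 to 60270 CPM (counts scaled to library size) without BLT1i and to 52960 to 64390 CPM with it, so the tissue carried the markers its label calls for. CDAA-HFD mouse 36 and BLT1i mouse 72 correlated least with the other mice of their groups (median r 0.98673 and 0.98897, against 0.9901 to 0.99204 in the other 18 mice). Across the genome 788 of 13993 genes passed the test between the groups (quasi-likelihood F-test in edgeR, with p adjusted by Benjamini-Hochberg and a threshold of 0.05). Of these, 511 rose and 277 fell with BLT1i. Of the marker lists read beside the ER genes, the one with the most calls was that of immediate early genes, which cells switch on within minutes of a stimulus. Of its 14 members 10 were higher in BLT1i mice and 0 lower, and their summed level was 701.3 to 1386 CPM in the untreated group against 1404 to 2399 CPM in the treated group. Mouse numbers run in a separate block for each group, so any effect of the order of handling cannot be told apart from treatment.

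The unfolded protein response is known to act through short promoter sequences, and those found in these genes are shown because most of the 36 varied together between mice. RefSeq promoters of 250 bases before and 50 after the gene start (build GRCm38.p6) were at hand for 29 of the 36 genes, and 32851 promoters were searched in all. The ER stress response element (ERSE), bound by ATF6 together with NF-Y, was searched on both strands as CCAAT, 9 bases of any kind, and CCACG. It was found in 9 of the 29 genes (31%), against 39 of the 32851 promoters (0.119%). The matches follow, each written 5′ to 3′ on the strand that carries it, with both boxes in capitals. Hsp90b1 holds a pair of them.
Calr, chr8:84847075-84847093, plus strand: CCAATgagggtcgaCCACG
Canx, chr11:50325800-50325818, minus strand: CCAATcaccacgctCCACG
Creld2, chr15:88819520-88819538, minus strand: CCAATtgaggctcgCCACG
Derl3, chr10:75893242-75893260, minus strand: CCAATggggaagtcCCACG
Dnajc3, chr14:118937827-118937845, plus strand: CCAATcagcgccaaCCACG
Hsp90b1, chr10:86705533-86705551, plus strand: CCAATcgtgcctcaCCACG
Hsp90b1, chr10:86705638-86705656, minus strand: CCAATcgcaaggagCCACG
Hspa5, chr2:34772025-34772043, plus strand: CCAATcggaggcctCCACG
Pdia6, chr12:17266491-17266509, plus strand: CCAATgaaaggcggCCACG
Syvn1, chr19:6046532-6046550, plus strand: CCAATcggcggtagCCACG
ERSE-II, searched on both strands as ATTGG, 1 base and CCACG, was found in Dnajb11 and Herpud1 (6.9% of the 29 genes, against 12 or 0.0365% of all promoters). In Dnajb11 the match lies past the annotated start. The XBP1 site TGACGTGG, searched on both strands and allowed to overlap the other motifs, was in 0 of the 29 genes and in 222 promoters (0.676%).
Dnajb11, chr16:22857852-22857862, plus strand: ATTGGcCCACG
Herpud1, chr8:94386377-94386387, plus strand: ATTGGgCCACG

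The 250 bases before the start of Hspa5 and of Derl3 are given in full because these genes stand at opposite ends of the results. Hspa5, the usual marker of the pathway, varied from mouse to mouse together with most of the other genes, whereas Derl3 had the largest fold change of the 36 and a correlation with Hspa5 near 0. Each holds 1 exact ERSE, with its boxes in capitals. In Derl3 the element lies on the strand opposite to the gene and so reads as CGTGG and ATTGG. A match to these letters describes the sequence and does not show binding.
Hspa5, chr2:34771840-34772089, plus strand: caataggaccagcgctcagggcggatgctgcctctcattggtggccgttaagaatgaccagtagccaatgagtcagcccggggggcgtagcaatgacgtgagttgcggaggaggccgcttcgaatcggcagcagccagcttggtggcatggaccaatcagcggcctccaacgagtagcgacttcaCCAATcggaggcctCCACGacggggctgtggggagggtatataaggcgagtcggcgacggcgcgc
Derl3, chr10:75893148-75893397, plus strand: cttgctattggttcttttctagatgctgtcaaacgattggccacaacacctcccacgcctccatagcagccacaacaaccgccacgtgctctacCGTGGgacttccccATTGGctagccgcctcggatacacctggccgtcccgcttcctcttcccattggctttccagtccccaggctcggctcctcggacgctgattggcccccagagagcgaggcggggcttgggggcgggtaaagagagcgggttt

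Of the 36 genes, 8 passed the test between the groups, 7 lower and 1 higher with BLT1i (22.2%, against 5.63% of all tested genes; 3.65% of all tested genes were higher and 1.98% lower). The 7 that fell were Hsp90b1, Hyou1, Calr, Uggt1, Pdia3, Pdia4 and Derl3, which act in folding apart from Derl3, a degradation factor. The gene that rose was Eif2ak3, the sensor kinase PERK. Changes were small apart from Derl3, since the other 6 genes that fell kept between 0.807 and 0.896 of their CDAA-HFD level. Over all 36 genes the median log2 fold change was -0.11, with 28 below 0 and 8 above 0, and over all tested genes it was -0.01, with 54% below 0. The 28 genes that did not pass had a median log2 fold change of -0.07, and 21 of them were below 0. In no gene were the mice of one group all outside the range of the other (0 of 36, against 0.443% of all tested genes, 0.422% higher and 0.0214% lower).

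**Figure D1:**
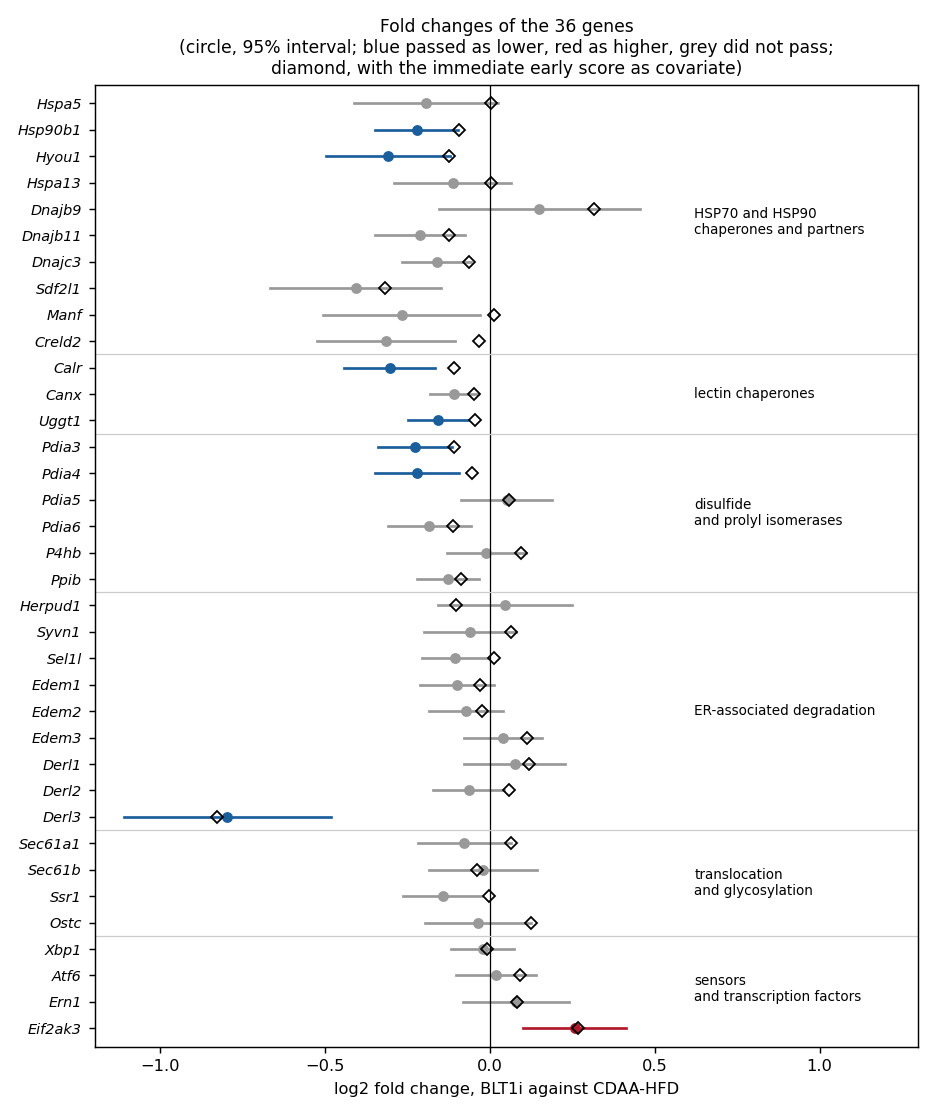
Log2 fold change of BLT1i against CDAA-HFD mice for each of the 36 genes, ordered by role, with circles for the estimate and lines for its 95% confidence interval (n = 10 mice per group; edgeR quasi-likelihood fit). Blue circles are the 7 genes that fell, the red circle is Eif2ak3, grey circles did not pass, and open diamonds give the estimate with the immediate early score as a covariate, which is nearer to 0 than the circle for the 6 other genes that fell and close to the circle for Derl3 and Eif2ak3.

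The calls depended on single mice and on whether the immediate early genes entered the model. With the mean log2 level of the immediate early genes as a covariate, 0 of the 36 genes passed. In that fit 94 of all 13993 tested genes passed (0.672%, and 0.114% lower), so 0 of 36 is near that share. The 6 genes that had fallen other than Derl3 then kept 0.245 to 0.479 of their log2 fold change, whereas Derl3 and Eif2ak3 kept 1.04 of theirs (adjusted p = 0.181 and 0.444 in edgeR). The median SE of the 36 genes went from 0.0663 to 0.116 in that fit. The immediate early score ranged from 4.83 to 5.81 without BLT1i and from 5.67 to 6.49 with it, and with so little overlap the score and the treatment cannot be told apart. Without BLT1i mouse 72, 16 of the 36 genes passed (against 5.2% of all tested genes), 15 lower and 1 higher, and Hspa5 was then among those that fell (adjusted p = 0.0446). Without mice 36 and 72, the pair that stood apart, 18 of the 36 passed (against 6.12% of all tested genes), 17 lower and 1 higher, and Hspa5 was not among them (adjusted p = 0.0558). The count was 3 without mouse 33, 74 or 79, 4 without mouse 31, 34, 39, 76 or 77, and 5 without mouse 38 or 80. With 1 mouse left out, 4.03% (without mouse 79) to 6.34% (without mouse 75) of all tested genes passed. Calr, Pdia3 and Derl3 passed whichever mouse was left out.

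The chaperones of the HSP70 and HSP90 families and their partners (10 genes) were lower in 2 genes and higher in 0, with a median log2 fold change of -0.22. Hsp90b1 encodes GRP94, the HSP90 of the ER, which folds a small set of secreted and membrane proteins. Its level was 688 CPM in the lowest, 766 in the median and 909.6 in the highest CDAA-HFD mouse, and 550.2, 660.5 and 765 CPM in the BLT1i mice. All 10 BLT1i mice lay below the CDAA-HFD median, although the ranges overlapped. Its log2 fold change was -0.22 ± 0.06 (SE, n = 10 per group; edgeR adjusted p = 0.0316), and the call was lost without mouse 31, 33, 34, 36, 74, 76, 77 or 79 (adjusted p up to 0.0704). Hyou1 encodes GRP170, a large relative of HSP70 that exchanges the nucleotide of BiP. It ran from 282.9 over a median of 330.7 to 404.6 CPM in CDAA-HFD mice and from 192.5 over 267.8 to 360.5 CPM in BLT1i mice. Of the BLT1i mice, 9 of 10 were below the CDAA-HFD median and 6 were below the lowest CDAA-HFD mouse. On the log2 scale the difference was -0.31 ± 0.09 (adjusted p = 0.0464). This call held only when mouse 36, 40, 71, 72 or 73 was the mouse left out, and the adjusted p otherwise rose to as much as 0.0976.

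Hspa5 itself did not pass. Its level was 595 CPM in the lowest, 750.2 in the median and 852 in the highest CDAA-HFD mouse, and 492.8, 597.7 and 994.7 CPM in the BLT1i mice. The BLT1i mice were thus both lower and higher than the CDAA-HFD mice, with 5 below the lowest control and 1, mouse 72, above the highest. The log2 fold change was -0.19 ± 0.11 (95% interval -0.41 to 0.03; adjusted p = 0.327), and with the immediate early covariate it was 0.00181. Of the other 7 genes of this class, Dnajb11, Dnajc3, Sdf2l1 and Creld2 narrowly missed the threshold (adjusted p = 0.0578, 0.0613, 0.0594 and 0.0676) with log2 fold changes of -0.21, -0.16, -0.41 and -0.32. Dnajb11 and Dnajc3 are J-domain partners that deliver clients to BiP, Sdf2l1 forms a complex with Dnajb11, and Creld2 has disulfide isomerase activity. Manf, which binds BiP and is also secreted, had -0.27 ± 0.12 (adjusted p = 0.192). Hspa13, an HSP70 without a substrate-binding domain, had -0.11 ± 0.09 and Dnajb9, a J-domain repressor of IRE1-alpha, had 0.15 ± 0.15.

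**Figure D2:**
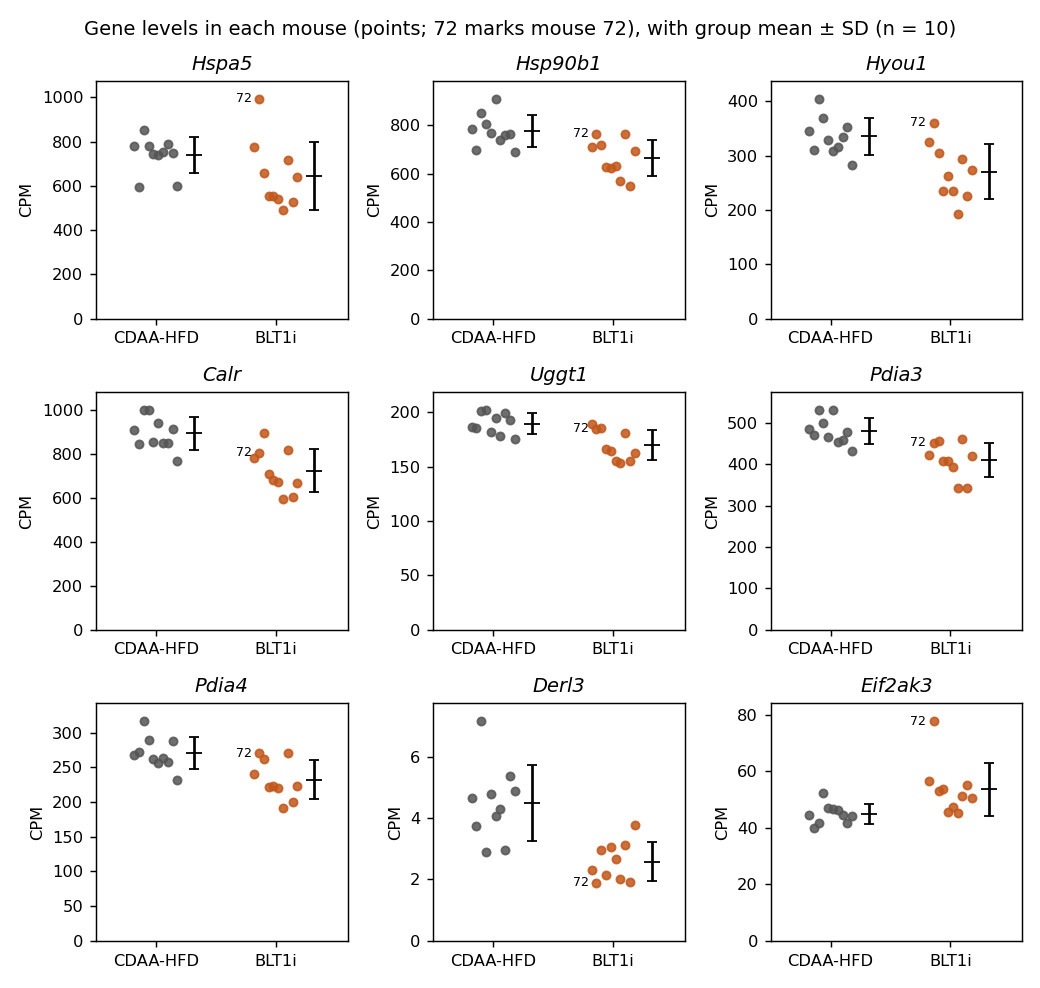
CPM of Hspa5 and of the 8 genes that passed in each mouse (points), with the group mean ± SD beside them (n = 10 mice per group). In Hsp90b1, Pdia3 and Derl3 all BLT1i mice lie below the CDAA-HFD median, in Eif2ak3 all lie above it, and mouse 72 (marked) is the highest BLT1i mouse for Hspa5, Hsp90b1, Hyou1, Pdia4 and Eif2ak3.

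The lectin chaperones (3 genes) had 2 genes that fell. Calr encodes calreticulin, the soluble lectin that holds glycoproteins carrying a single glucose and also stores ER calcium. It ran from 766.5 over a median of 880.6 to 998.8 CPM in CDAA-HFD mice and from 594.4 over 694.7 to 891.1 CPM in BLT1i mice. Of the BLT1i mice 9 lay below the CDAA-HFD median and 6 below the lowest control, while the ranges overlapped. This amounted to a log2 fold change of -0.30 ± 0.07 (adjusted p = 0.00773), or 0.81 of the CDAA-HFD level. Uggt1 encodes the glucosyltransferase that senses misfolded glycoproteins and marks them for another round with the lectins. Its lowest, median and highest levels were 175.4, 189.5 and 202.3 CPM on CDAA-HFD alone and 152.9, 165.5 and 189.6 CPM in BLT1i mice. Of the BLT1i mice 9 lay below the CDAA-HFD median, 6 below the lowest control and 1 just above the median. The resulting log2 fold change was -0.16 ± 0.04 (adjusted p = 0.0319), a call lost without mouse 33, 34, 38, 39, 74, 76, 77, 79 or 80 (adjusted p up to 0.0744). Canx, the membrane-bound partner of calreticulin, had a log2 fold change of -0.11 ± 0.04 and did not pass (adjusted p = 0.0653), although all 10 BLT1i mice were below the CDAA-HFD median.

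The disulfide and prolyl isomerases (6 genes) also had 2 genes that fell. Pdia3 encodes ERp57, the disulfide isomerase that works with calreticulin and calnexin. It ran from 431.6 over a median of 474.3 to 531.6 CPM in CDAA-HFD mice and from 342.7 over 413.6 to 461 CPM in BLT1i mice. All 10 BLT1i mice were below the CDAA-HFD median and 7 below the lowest control. Its log2 fold change was -0.23 ± 0.05 (adjusted p = 0.014). Pdia4 encodes ERp72, a disulfide isomerase of the BiP complex. Its lowest, median and highest levels were 232.3, 265.3 and 316.9 CPM on CDAA-HFD alone and 191.9, 223.2 and 270.6 CPM in BLT1i mice, with 6 BLT1i mice below the lowest control. On the log2 scale the difference was -0.22 ± 0.06 (adjusted p = 0.0339), a call lost without mouse 31, 33, 34, 39, 71, 74, 76, 77, 79 or 80 (adjusted p up to 0.0794). Pdia6 and Ppib, a prolyl isomerase, had -0.18 ± 0.06 and -0.13 ± 0.05 and did not pass (adjusted p = 0.0773 and 0.109). P4hb, the founding disulfide isomerase PDI, had the highest level per length of the 36 genes, 438.7 in CDAA-HFD mice against 432 in BLT1i mice on the rounded FPKM scale (fragments per length and depth), and a log2 fold change of -0.01 ± 0.06 (95% interval -0.13 to 0.11). Pdia5 had 0.05 ± 0.07.

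Among the 9 genes of ER-associated degradation only Derl3 passed, and it did so with the largest fold change of the 36. Derl3 encodes derlin-3, a membrane protein of the retrotranslocation machinery whose expression is known to depend on the unfolded protein response and to be high in secretory cells. It was a gene of low level here, with 37 to 160 counts per mouse and a level per length of 2.7 in CDAA-HFD mice and 1.3 in BLT1i mice on the rounded FPKM scale, where whole numbers are coarse. Its lowest, median and highest levels were 2.896, 4.474 and 7.161 CPM on CDAA-HFD alone and 1.889, 2.494 and 3.761 CPM in BLT1i mice. All 10 BLT1i mice were below the CDAA-HFD median and 6 were below the lowest control. The log2 fold change was -0.80 ± 0.15 (adjusted p = 0.00232), or 0.576 of the CDAA-HFD level. Plasma cells are a source of Derl3 in other tissues, so their markers were read beside it. Of the 14 plasma cell and B cell markers listed, 3 were not in the count table, 9 were tested and 0 passed. The sum of the 11 in the count table was 166.5 to 211.4 CPM without BLT1i and 182.3 to 232.2 CPM with it. Most of it was Sdc1, which hepatocytes also express. Jchain, the joining chain of their antibodies, was 1.685 ± 0.562 CPM without BLT1i and 2.204 ± 1.09 CPM with it (SD, n = 10; adjusted p = 0.469). Cd79b, a subunit of the B cell receptor, was 1.91 ± 0.394 and 1.707 ± 0.135 CPM (adjusted p = 0.467). Mzb1, a plasma cell chaperone cofactor, was too low to test and had the direction of Derl3, at 0.4161 ± 0.15 CPM without BLT1i and 0.286 ± 0.139 CPM with it, where 9 of 10 BLT1i mice were below the CDAA-HFD median. Tnfrsf17 was also too low to test. With the mean log2 level of the 9 tested markers as a covariate, Derl3 had a log2 fold change of -0.857 ± 0.155 (edgeR adjusted p = 0.0016). That covariate leaves out Mzb1, Tnfrsf17 and the 3 listed markers that the count table lacks. The part of plasma cells in the fall of Derl3 was not tested further.

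The other 8 degradation genes did not pass. Sel1l, the adaptor that holds the degradation complex together, ran from 199.1 over a median of 217.7 to 235.7 CPM in CDAA-HFD mice and from 184.2 over 198.5 to 252.1 CPM in BLT1i mice. The BLT1i range enclosed the CDAA-HFD range, with 5 mice below it and mouse 72 above it. This amounted to a log2 fold change of -0.10 ± 0.05 (adjusted p = 0.236; 0.0421 without mouse 72). Syvn1, the ubiquitin ligase of that complex, had -0.06 ± 0.07, and the mannosidase-like proteins Edem1, Edem2 and Edem3 had -0.10 ± 0.05, -0.07 ± 0.05 and 0.04 ± 0.06. Derl1 and Derl2, the derlins of high level, had 0.08 ± 0.07 and -0.06 ± 0.05. Herpud1, a scaffold of the complex that turns over fast, had 0.04 ± 0.10. Whether Derl3 differed from Derl1 and Derl2 in its response was not tested, though the 95% interval of Derl3 (-1.11 to -0.48) lay apart from those of Derl1 (-0.08 to 0.23) and Derl2 (-0.17 to 0.04).

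None of the 4 translocation and glycosylation genes passed, and their median log2 fold change was -0.06. Ssr1, a subunit of the translocon-associated complex, ran from 166.1 over a median of 184.2 to 207.7 CPM in CDAA-HFD mice and from 143.9 over 163 to 205.7 CPM in BLT1i mice, with a log2 fold change of -0.14 ± 0.06 (adjusted p = 0.163). Sec61a1, the pore of the translocon, ran from 325.4 over 347.2 to 391.4 CPM in CDAA-HFD mice and from 278.1 over 320.1 to 419.6 CPM in BLT1i mice, with -0.08 ± 0.07 (adjusted p = 0.587). Of the BLT1i mice, 5 were below the lowest control and 0 above the highest in Ssr1. In Sec61a1 6 were below the lowest control and 2 above the highest. Sec61b and Ostc, a small subunit of the oligosaccharyltransferase, had -0.02 ± 0.08 and -0.04 ± 0.08.

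Of the 4 sensors and transcription factors, 1 rose and 3 did not pass. Eif2ak3, the kinase PERK that slows translation by phosphorylating eIF2-alpha, was 39.87, 44.5 and 52.43 CPM in the lowest, median and highest CDAA-HFD mouse and 45.34, 51.99 and 77.77 CPM in the BLT1i mice. All 10 BLT1i mice lay above the CDAA-HFD median and 5 above the highest control, mouse 72 farthest. The resulting log2 fold change was 0.26 ± 0.08 (adjusted p = 0.0452), a rise of 1.195-fold. This call held only when mouse 34, 72, 75, 76 or 77 was the mouse left out (adjusted p otherwise up to 0.0857), and without mouse 72 the log2 fold change was 0.18. Xbp1 encodes the factor that IRE1-alpha activates by splicing, and gene counts do not separate its spliced from its unspliced RNA. It ran from 174.6 over 216.5 to 233.9 CPM in CDAA-HFD mice and from 194.8 over 210.1 to 227.4 CPM in BLT1i mice, with a log2 fold change of -0.02 ± 0.05 (95% interval -0.12 to 0.07; adjusted p = 0.847). The BLT1i range lay inside the CDAA-HFD range. Atf6 ran from 157.3 over 166.2 to 188.9 CPM in CDAA-HFD mice and from 151.4 over 170.1 to 221 CPM in BLT1i mice, with 0.02 ± 0.06 (adjusted p = 0.909). Ern1 ran from 152.7 over 174.7 to 202.9 CPM in CDAA-HFD mice and from 138.2 over 184.6 to 235 CPM in BLT1i mice, with 0.08 ± 0.08 (adjusted p = 0.637). RNA levels of the sensors say nothing of their activity, which rests on cleavage, phosphorylation and splicing.

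The set as a whole varied between mice. The 36 genes together took 0.842% to 0.989% of the counts of a CDAA-HFD mouse (median 0.936%) and 0.714% to 0.996% of the counts of a BLT1i mouse (median 0.799%). In the BLT1i group mouse 72 was the highest of its group in 27 of the 36 genes, and mouse 77 was the lowest in 20. In the CDAA-HFD group mouse 33 was the highest in 11 genes and mouse 40 the lowest in 16. Mice 71, 72, 73 and 78 were above the BLT1i mean in 30 to 34 of the 36 genes, whereas mice 74, 75, 76, 77 and 79 were above it in 0 to 7. These mice were picked by their values and are named as a description only.

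**Figure D3:**
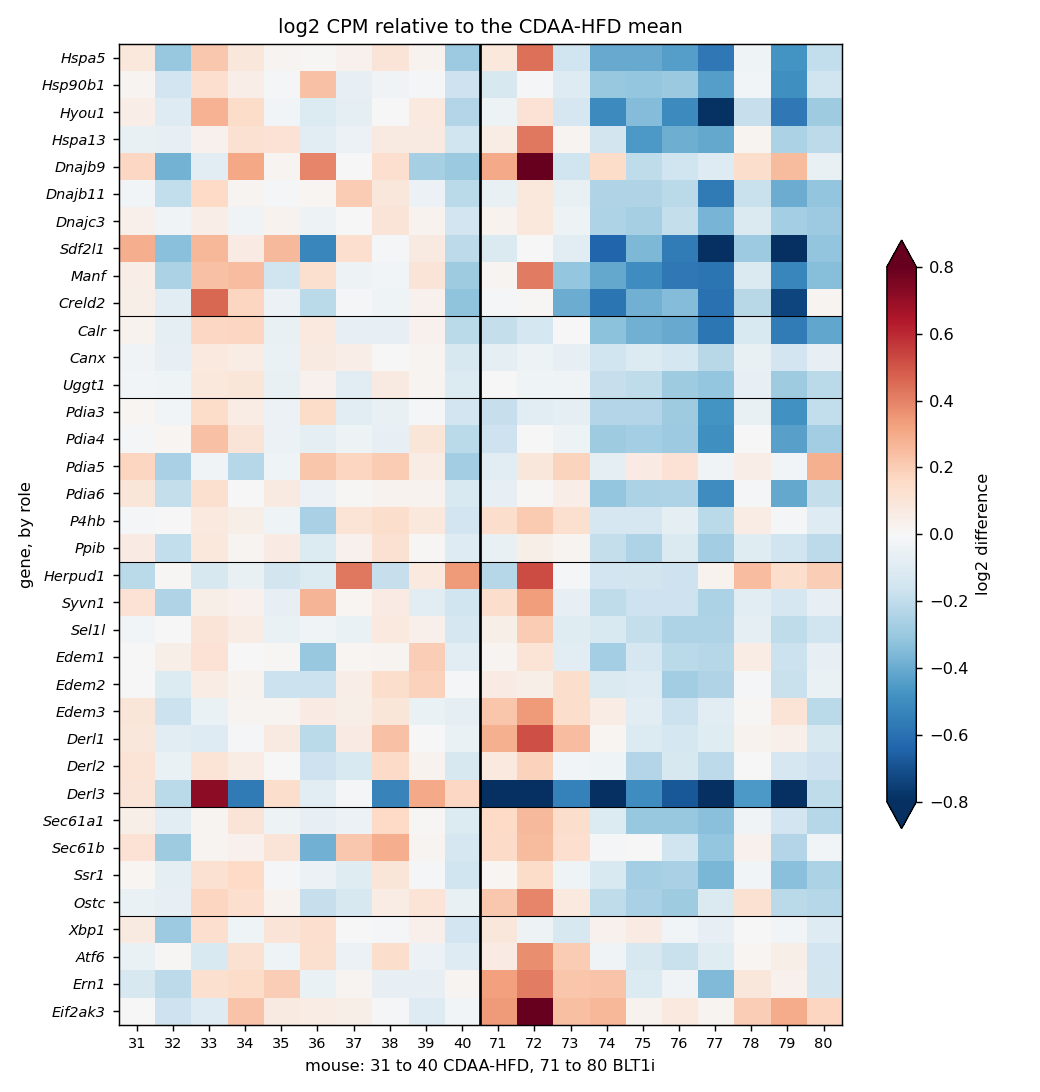
Log2 CPM of each of the 36 genes (rows, ordered by role) in each mouse (columns) as the difference from the CDAA-HFD mean, in red where higher and blue where lower, with colours capped at 0.8 in either direction. Most chaperone and isomerase rows are blue in mice 74 to 77 and 79, mouse 72 is red in most rows, and the Derl3 row is blue in all BLT1i mice.

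The genes varied together across mice when the group difference was taken out. On deviations of log2 CPM from the group mean over 20 mice, Pearson's r of Hspa5 with the other 35 genes had a median of 0.76, and with the remaining tested genes a median of -0.02, of which 0.638% exceeded that of the 35. With p-values from permutation of mice within groups, adjusted by Benjamini-Hochberg over all 13992 tested genes, 20 of the 35 (57.1%) passed for both r and Spearman's rho, against 0.85% of all tested genes. The highest was Manf (r = 0.945, rho = 0.91; adjusted permutation p = 0.00933 and 0.00608). Next came Hyou1 (r = 0.905, rho = 0.895), Sel1l (r = 0.891, rho = 0.845), Ssr1 (r = 0.881, rho = 0.893) and Hspa13 (r = 0.873, rho = 0.844), with adjusted permutation p of 0.00933 to 0.0195 for r and 0.00608 to 0.00874 for rho. Among all tested genes the 10 with the highest r were Manf, Spcs2, Cdk2ap2, Gmppb, Spcs3, Rpn1, Magt1, Hyou1, Tmed9 and Sel1l, and of the first 50, 10 were among the 36 genes and 10 were other genes of the pathway. Spcs2 and Spcs3 are signal peptidase subunits, Rpn1 and Magt1 belong to the oligosaccharyltransferase, Gmppb makes GDP-mannose and Tmed9 is a cargo receptor of the early secretory pathway. Since the choice of the genes drew on earlier results of these data, this covariation is no independent support for treating them as a unit.

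The relation rested in part on extreme mice. Without mice 72 and 77, the farthest from the median of Hspa5, r of the 20 genes that passed was 0.622 to 0.897. Of the 35 genes, Manf and Hyou1 then still passed for r after adjustment over all tested genes (r = 0.897 and 0.873; adjusted permutation p = 0.028 for each), both at 1e-05 before adjustment, the smallest p these permutations could give. Within groups, r of the same 20 genes with Hspa5 was 0.486 to 0.906 on CDAA-HFD alone and 0.788 to 0.985 with BLT1i.

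The genes least related to Hspa5 came from 3 roles. The 5 lowest were Derl3 (r = 0.0287, rho = 0.0406), Herpud1 (r = 0.206, rho = -0.0647), Pdia5 (r = 0.311, rho = 0.259), Xbp1 (r = 0.365, rho = 0.35) and Atf6 (r = 0.613, rho = 0.43), with adjusted permutation p from 0.213 to 0.976 for r and from 0.441 to 0.965 for rho. Xbp1 followed Hspa5 in CDAA-HFD mice (r = 0.836) and had r = 0.0386 in BLT1i mice, a difference that was not tested. Over all 630 pairs of the 36 genes the median r was 0.62, and 596 pairs were above 0. It was 0.394 in CDAA-HFD mice and 0.758 in BLT1i mice, and this difference was not tested either. By role, the median r within a class was 0.744 among HSP70 and HSP90 chaperones and partners, 0.756 among lectin chaperones, 0.614 among isomerases, 0.766 among translocation and glycosylation genes, 0.426 among sensors and 0.407 among degradation genes. Derl3 had a median r of -0.00312 with the other 35 genes, and its lowest was with Atf6 (r = -0.566). With 37 to 160 counts, Derl3 also carries more counting error than the other genes.

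**Figure D4:**
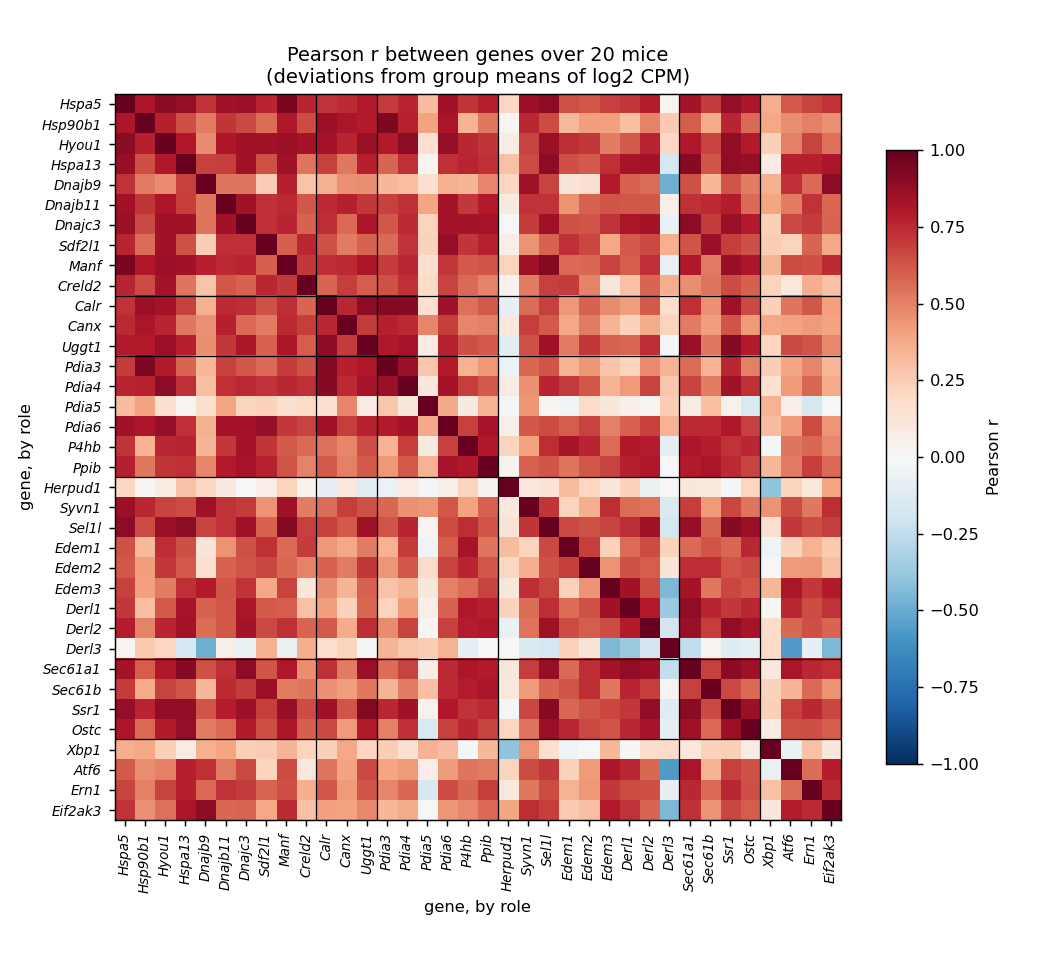
Pearson's r between each pair of the 36 genes over 20 mice, on deviations of log2 CPM from the group mean, in red above 0 and blue below 0, with genes ordered by role. The rows of Pdia5, Herpud1, Derl3 and Xbp1 are pale or blue within a field that is mostly red.

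**Figure D5:**
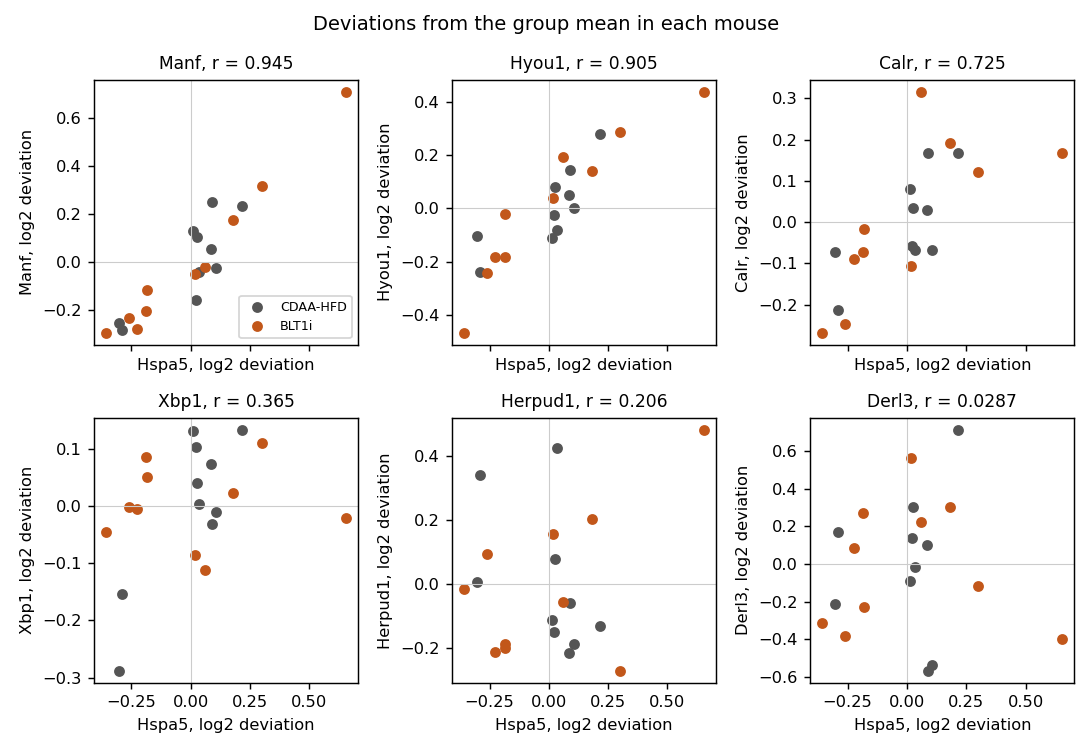
Deviation of log2 CPM from the group mean in each mouse (grey, CDAA-HFD; orange, BLT1i) for 6 genes against Hspa5, with r over 20 mice. Manf and Hyou1 rise along a line with Hspa5, and Xbp1, Herpud1 and Derl3 do not, while the single BLT1i mouse farthest to the right is mouse 72.

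Genes with an ERSE, listed above, were compared with the rest as a description. The 9 genes with a match had a median log2 fold change of -0.19, and 3 of them fell (Calr, Derl3 and Hsp90b1). The 20 genes with a promoter in the table and no match had a median of -0.07, and 3 of them fell (Uggt1, Pdia3 and Pdia4) and 1 rose (Eif2ak3). Hyou1, which fell, had no promoter in the table. Of the 9 genes, Hspa5 aside, 7 had an r with Hspa5 between 0.725 and 0.86 (Calr, Canx, Creld2, Dnajc3, Hsp90b1, Pdia6 and Syvn1). The 20 genes without a match ran from r = 0.206 to 0.891, with Sel1l (r = 0.891) and Ssr1 (r = 0.881) above all 7. A high r was thus also seen in genes without an exact match. Only exact boxes and spacing near the gene start were searched, so no match does not show that an ERSE is absent. Manf and Hyou1, which had the highest r, had no promoter in the table. Derl3, whose element has the same boxes and spacing as that of Hspa5, had an r near 0. Of the 2 genes with an ERSE-II, Herpud1 had 0.206 and Dnajb11 0.841. A role of the element was not tested.

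Beyond the 36 genes, few other genes of ER protein handling changed. Of 121 further genes in 5 lists, 117 were tested and 3 passed (2.56%, against 5.63% of all tested genes), all of them higher with BLT1i. They were Creb3l3, a liver transcription factor that is anchored in the ER and cut like ATF6 (187.3 ± 18 CPM against 221.8 ± 27.1 CPM with BLT1i, SD, n = 10; log2 fold change 0.24 ± 0.07; adjusted p = 0.0266), Tram2, which assists translocation (0.14 ± 0.04; adjusted p = 0.0399), and Ppp1r15a, the phosphatase subunit GADD34 that reverses the action of PERK (0.27 ± 0.08; adjusted p = 0.0402). The count was 1 without mouse 31, 33, 34, 73, 75, 76 or 77, 0 without mouse 79 and 5 without mouse 36. Over the 117 genes the median log2 fold change was -0.01, and 23 had an unadjusted p under 0.05. This was near the share over all tested genes, where 2753 of 13993 had such a p. The lists differed, however, with such a p in 9 of 16 stress signalling genes. It was seen in 4 of 32 other folding enzymes and co-chaperones and in 4 of 30 other degradation genes. The other translocation list had 4 of 22 and the other glycosylation list 2 of 17. By list, 0 of 32 other folding enzymes and co-chaperones, 0 of 30 other degradation genes, 1 of 22 other translocation and signal peptidase genes, 0 of 17 other glycosylation genes and 2 of 16 other stress signalling genes passed. The glycosylation list leaned the way of the chaperones without a call, with 15 of 17 genes below 0 and a median of -0.06. Atf4, the factor translated when PERK is active, had a log2 fold change of 0.24 and an adjusted p of 0.0973. It is 1 of 14 tested stress signalling genes that did not pass. Log2 fold changes of the 16 tested genes of that list ran from -0.238 to 0.581, with 5 below 0 and 11 above.

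Some markers of liver cells passed, and several others had differences as large as those of the chaperones. Of the lists, 1 of 10 hepatocyte markers (Cyp2e1) was higher and 1 of 10 macrophage markers (Fcer1g) lower. Of 10 endothelial markers 2 were higher, and 0 of 10 stellate cell, 0 of 8 cholangiocyte and 0 of 4 tested neutrophil markers passed. The shares were thus 10% of hepatocyte, 10% of macrophage and 20% of endothelial markers, against 5.63% of all tested genes. Among those that did not pass, the Kupffer cell marker Clec4f had a log2 fold change of 0.69 ± 0.22 (adjusted p = 0.0675), the macrophage markers Trem2 and Cd68 had -0.18 ± 0.05 and -0.17 ± 0.06 (adjusted p = 0.0504 and 0.0791), and the collagen genes Col1a1 and Col1a2 had -0.24 ± 0.08 and -0.21 ± 0.08 (adjusted p = 0.0808 and 0.101). All 8 cholangiocyte markers were below 0, with a median of -0.12. An unadjusted p under 0.05 was found for 6 of 10 macrophage and 5 of 10 endothelial markers (against 2753 of 13993 tested genes). Of the other lists, 2 of 10 hepatocyte, 3 of 10 stellate cell, 2 of 8 cholangiocyte and 1 of 4 neutrophil markers had such a p. No marker in the table was at 0 in every mouse. Summed neutrophil markers were 22.17 to 30.62 CPM without BLT1i and 17.85 to 28.35 CPM with it. Across mice, 9 measures (the marker scores and the library total) were set against Hspa5, a family added after the group values were seen. Only the neutrophil score passed for r (r = -0.68; adjusted permutation p = 0.0194), and not for rho (rho = -0.633; adjusted permutation p = 0.054) or without mice 72 and 77 (r = -0.522; adjusted permutation p = 0.149). The immediate early score had r = -0.264 with Hspa5 within groups (rho = -0.329; adjusted permutation p = 0.666 and 0.679), and r = -0.51 without mice 72 and 77 (adjusted permutation p = 0.149). The part of these cells in the ER gene differences was not tested beyond these values.

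Some counts could hold reads of a neighbour. In GENCODE M21, 6 of the 36 genes share exon bases with another protein-coding gene, most of all Ppib with Snx22 on the opposite strand (25% of its exon bases) and Manf with Dcaf1 on the opposite strand (4.14%) and Rbm15b on its own (0.397%). Pdia3 shares 0.573%, and the other 3 genes are Derl2, Syvn1 and Pdia6 at 2.87%, 1.87% and 1.34%. The library kit keeps the strand, but the sources used here do not say whether the counting used it.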

How the data were processed

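Liver RNA of 20 mice (10 per group) was purified with a DNase step and made into stranded, ribosomal RNA-depleted libraries that were read in pairs, per the labels' protocols (the molecule field reads polyA RNA). The authors deposited whole-number counts per protein-coding gene, used for all main tests, and FPKM rounded to whole numbers, which were treated as a score and used for levels between genes and for alternatives. Of these deposited rounded values 43.3% were 0. The build was GRCm39 per the submitters' processing notes, and for aligner and counter: not given in the sources used here. Symbols were matched to 21457 of the 21500 Ensembl identifiers; unnamed genes held 0.00776% of the counts, and 0 columns of per-mouse values were left unmapped. Counts of each of the 90 same-group pairs of mice differed beyond counting error (chi-square over its degrees of freedom, 6.17 to 30.9), and nothing in the labels says how the mice were housed or batched.

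Genes left by filterByExpr (13993) entered edgeR 4.0.16 in R 4.3.3, with TMM scaling and its robust, two-sided quasi-likelihood test without covariates, and p was adjusted by Benjamini-Hochberg over all of them. Log2 CPM used a prior count of 2. Correlations used 100000 two-sided permutations within groups (Python 3.11.15, numpy 2.4.6), with p adjusted over all 13992 genes other than Hspa5, or over the 9 marker and depth measures. On simulated counts for the BLT1i against CDAA-HFD comparison (13964 genes), the test recovered 67 of 100 genes changed by 0.3 and 85 of 99 changed by 0.5 on the log2 scale, with 5 false among 157 calls. Genes were matched to RefSeq promoters by symbol, and those coordinates are of GRCm38.p6, not of the authors' build.

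The 36 genes, the roles, the other lists, the tests and the alternatives were chosen with earlier results of these data known. Values were given for the genes that passed, the 2 genes with the lowest p in each of 6 roles, and Hspa5, Hsp90b1, Xbp1, Atf6, Ern1 and Eif2ak3; genes near the threshold and the remaining roles were described after their values were seen. Alternatives were other scalings and filters, DESeq2 1.42.0, limma 3.58.1 (voom, and trend on the rounded FPKM), other thresholds, marker scores as covariates and each mouse left out. The covariate of stellate cell markers and the fit without mice 36 and 72 were added after seeing the data.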

Additional observations from a re-analysis of the deposited data

Results flagged for a closer look

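In 4 of the 36 genes, BLT1i mouse 72 lay far above the other 9 mice of its group, measured as the gap to the nearest mouse over the range of the group. Dnajb9 was 121.2 CPM in mouse 72 and 72.39 CPM in the next mouse (gap 0.696 of the range). Eif2ak3 was 77.77 CPM against 56.6 CPM (0.653), Hspa13 was 76.4 CPM against 59.3 CPM (0.49), and Manf was 114.5 CPM against 87.25 CPM (0.475). These gaps pass the limit of Dixon's test for 10 samples. Chance flags about 1 in 20 groups, and 72 groups (36 genes in 2 groups of mice) were tested. All 4 values are from the same mouse.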

How the results depend on the processing

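The direction of the 8 calls held in every alternative run, and the sets of genes past the threshold did not. Of the 36 genes 14 passed at a threshold of 0.1 (13 lower) and 2 at 0.01 (2 lower), and of the other ER genes 7 and 0. Of all tested genes 9.33% and 2% passed at these thresholds. With library totals alone 14 of the 36 passed, all lower, with DESeq2 13 (12 lower), with upper-quartile scaling 12, all lower, and with limma-voom 11 lower and 1 higher. Of all tested genes 6.65%, 7.91%, 6.03% and 6.93% passed in these fits, in that order. Of the other ER genes, 7 passed with library totals, 6 with limma-voom, and 1 with limma on the rounded FPKM plus 1, with or without the filter. The plasma cell and B cell covariate left 3 of the 36 (Calr, Pdia3 and Derl3, all lower) and 0 of the others, the immediate early covariate 0 and 0, and the stellate cell covariate 5 and 1. Of all tested genes these covariates left 4.4%, 0.672% and 2.35%, in that order. Without mice 36 and 72, 18 of the 36 passed (17 lower), and 8 of the others, against 6.12% of all tested genes. With 1 mouse left out, the 36 genes gave 3 to 16 calls, 3 to 15 lower and 0 to 1 higher, and the others 0 (without mouse 79) to 5 (without mouse 36). The share of all tested genes in these fits was 4.03% (without mouse 79) to 6.34% (without mouse 75). The 1 higher gene, Eif2ak3, gave 0 higher calls with upper-quartile scaling, library totals, no filter, a threshold of 0.01 and each of the 3 covariates. Some directions reversed, all in genes without a call. Atf6 had a log2 fold change of -0.0117 with library totals, -0.0267 to 0.0393 with 1 mouse left out (below 0 without mouse 72, and -0.00355 without mouse 73), -0.0121 without mice 36 and 72 and -0.0827 with the stellate cell covariate. With the immediate early covariate Hspa5 had 0.00181, Sel1l 0.0127 and Sec61a1 0.0649, and Manf and Hspa13 also changed sign (0.0108 and 0.00366, from -0.27 and -0.11). So did P4hb, Syvn1, Derl2 and Ostc (0.0927, 0.0632, 0.0572 and 0.123) and Herpud1 (-0.103), and 20 of the 36 genes were then below 0. With the stellate cell covariate Xbp1 had 0.0126, and Herpud1, Edem3 and Derl1 had -0.0735, -0.0501 and -0.0623. The cause was not tested in any of these. The median r with Hspa5 stayed between 0.723 and 0.795 over 25 alternatives. No paired analysis was possible because the groups share no mouse numbers.

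At this depth a gene such as Derl3 rests on few counts. Rounding limits levels per length of low genes. The smallest change put into the simulated counts was 0.3 on the log2 scale, where the test recovered 67 of 100. Most of the 36 genes had smaller changes (median log2 fold change -0.11), and recovery at such sizes was not measured. A gene that did not pass is therefore not shown to be unaffected.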
